A study of Mus musculus with 2 samples.

Results

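The ETS genes encode transcription factors, and the 10 described here were Ets1, Ets2, Elk1, Elk3, Elk4, Etv1, Etv6, Gabpa, Elf1 and Elf2. They were taken by name, through their NCBI gene numbers, from the 41709 genes of the deposited tables, and all 10 were found. The set was drawn up because Ets2 was one of the lowest genes in the knockdown library, that is, it was chosen by the read counts of Ets2 in both libraries, and that gene's ratio is given as a description. Whole lungs of C57BL/6 mouse embryos at stage E14.5 were pooled, 7 to a sample, and the polyadenylated RNA was sequenced in 2 libraries. The control pool carries the genotype label control. The other pool carries the genotype label Prmt5 knockdown and a title that names both Shh and Prmt5. The labels do not give how either gene was altered, in which cells, or with which Cre or allele. With 1 library per group there was no replicate and no test, and every ratio below is knockdown over control in these 2 pools with a 95% interval that covers counting error only.

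ETS proteins share a winged helix DNA-binding domain that reads a GGAA or GGAT core, and most of them are endpoints of RAS and ERK kinase signalling. ERK phosphorylates Ets1 and Ets2 next to their pointed domain and the Elk proteins in their activation domain, and this raises their activity as transcription activators. In the branching lung FGF signalling acts through ERK, and the related factors Etv4 and Etv5 are used as its readout in the distal epithelium. Other members have cell type roles, such as Ets1, Elk3, Erg and Fli1 in endothelium, Spi1 in myeloid cells and Elf3 and Elf5 in epithelium.

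The promoter of Ets2 is shown because that gene carried the main difference, and those of Elk4 and Gabpa because they were the member promoters that held the ETS consensus CCGGAAG, on either strand, which is in capitals. Each is 1 run of 300 bases, from 250 before to 50 after a start listed in RefSeq on GRCm38.p6, written 5′ to 3′ on the gene's strand. For Ets2 that start is the gene start given below. For Elk4 and Gabpa it lies inside the gene, after the gene start given below. The other listed windows of Elk4 held no CCGGAAG on either strand.
Ets2 chr16:95702157-95702456 (+ strand): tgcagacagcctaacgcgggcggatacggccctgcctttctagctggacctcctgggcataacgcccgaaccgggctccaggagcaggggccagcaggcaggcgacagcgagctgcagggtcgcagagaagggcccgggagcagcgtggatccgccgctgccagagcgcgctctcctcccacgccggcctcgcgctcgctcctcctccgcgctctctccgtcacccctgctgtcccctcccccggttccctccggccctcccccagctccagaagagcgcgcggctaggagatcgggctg
Elk4 chr1:132007370-132007669 (+ strand): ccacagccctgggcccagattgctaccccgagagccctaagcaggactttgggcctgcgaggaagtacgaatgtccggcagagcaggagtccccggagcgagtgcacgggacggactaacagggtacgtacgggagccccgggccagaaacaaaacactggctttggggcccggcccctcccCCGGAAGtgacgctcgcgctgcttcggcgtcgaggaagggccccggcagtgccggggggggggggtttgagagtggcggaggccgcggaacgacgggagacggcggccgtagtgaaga
Gabpa chr16:84834874-84835173 (+ strand): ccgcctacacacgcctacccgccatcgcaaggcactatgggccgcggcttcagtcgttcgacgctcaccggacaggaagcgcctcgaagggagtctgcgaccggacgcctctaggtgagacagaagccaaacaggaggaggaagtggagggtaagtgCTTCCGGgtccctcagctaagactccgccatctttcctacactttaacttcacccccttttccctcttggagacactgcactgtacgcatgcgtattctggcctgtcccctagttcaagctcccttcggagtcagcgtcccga
The Ets2 window held no CCGGAAG or its reverse complement CTTCCGG, which says only that these letters are not in this window. Of the 9 members with a window in the table, 2 held the motif in at least 1 of their windows, and 18.5% of the 11081 measured genes with a window did. GC content was 71.7% in the Ets2 window, 68.3% in that of Elk4 and 59.3% in that of Gabpa, against a median of 60.7% over the first listed window of the measured genes.

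Counted reads came to 22581490 for the control pool and 25829281 for the knockdown pool. Prmt5 had 2704 and 2127 reads, 1.35-fold lower, and Shh had 1124 and 109, 10.9-fold lower. Lung markers were present in both libraries, and lung epithelium genes were lower in the knockdown library. Marker counts here follow the rule of size defined below, by which 12.3% of all measured genes were lower and 20.7% higher. Of 13 measured epithelial markers 10 were lower and none higher. The 14 listed epithelial genes summed to 1662 CPM (counts scaled to a common library size) in control and 573 in knockdown lungs. Endothelial markers had 6 of 13 lower and none higher, with sums of 1331 and 885 CPM, and mesenchymal markers 7 of 10 lower, with sums of 6673 and 7444 CPM. Most of the mesenchymal sums came from Col1a1 (3582 and 4568 CPM) and Col1a2 (1701 and 2302), which were not among the 7. Markers of other tissues were higher, in all 11 liver genes (58.8 and 10829 CPM), all 11 heart genes (242 and 7484), all 9 skeletal muscle genes (27.5 and 1042), all 12 red blood cell genes (9744 and 37288), all 10 immune genes (139.5 and 325), 7 of 8 nerve and glia genes (43.9 and 125) and all 4 measured thymus genes of 6 (3.62 and 32.3). Among these lists Nppb, Pax1 and Cd8a had 0 reads in the control, and Cd8a had 0 in the knockdown library as well. These lists differ between the pools, and without replicates genotype cannot be told apart from pool or dissection. Whether tissue other than lung was in the knockdown pool was not tested. The part of these lists in the ETS values below was not tested except where a value is given. In bulk RNA, fewer cells of a type and less RNA per cell cannot be told apart.

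Ets2, an ERK-responsive activator, was nearly lost from the knockdown library. Control lungs gave 435 reads and knockdown lungs 31, or 18.5 and 1.25 CPM. The knockdown library was low and the counting intervals of the levels, 2.46 to 2.98 FPKM and 0.115 to 0.240 FPKM, did not overlap. FPKM is the deposited level, a count scaled to gene length and library total. The ratio was 14.6-fold lower (log2 -3.87, -4.47 to -3.37). How the authors' annotation or counting bears on the reads of Ets2 was not tested. Ets2 (NCBI gene 23872, GRCm38.p6 chromosome 16, 95702407 to 95721049, plus strand) lay at percentile 24.9 of measured genes by FPKM in control and at 0.316 in knockdown lungs.

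No other member passed the rule of size used throughout, a ratio of at least 1.5 either way with an interval that excludes 1, in genes with at least 50 reads in 1 library. By that rule 1 of the 10 members was lower and none higher. The background over the 14569 measured genes was 12.3% lower and 20.7% higher, and the share of 1 in 10 is near the first. Nothing is read from the member that set the choice. Of genes past the rule 62.7% were higher, and with library totals as the scale 52.3% were. That scale moved the median log2 ratio of all measured genes from -0.01 to -0.12.

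The genes ranked next to Ets2 among the lower ones, by the interval bound nearest to 1, are given for comparison. Ets2 stood in place 20 of 1795. Just ahead of it was Ndufs3, a core subunit of respiratory complex I, with 814 and 63 reads, a 13.6-fold difference in a gene that most cells use, for which the part of counting or annotation was not tested. Just behind it was Aldh1a7, an aldehyde dehydrogenase of airway epithelium, with 2874 and 281. The 5 genes most like Ets2 in control level and ratio together, over these 2 libraries, were Ncbp3 (326 and 27 reads), the centriole kinase Plk4 (302 and 22), the secretoglobin Scgb3a2 (603 and 52), the mucin Muc1 (461 and 52) and the GABA receptor gene Gabbr1 (414 and 48). The likeness was the distance in log2 CPM of the control and log2 ratio, from 0.47 for Ncbp3 to 0.70 for Gabbr1. Of 4415 genes with control reads within 2-fold of those of Ets2, 10.8% were lower past the rule. Of the same 4415 genes 9, Ets2 included, had a ratio as low as that of Ets2. Because Ets2 was chosen for its low value, nothing is read from its place or from this count.

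**Figure D1:**
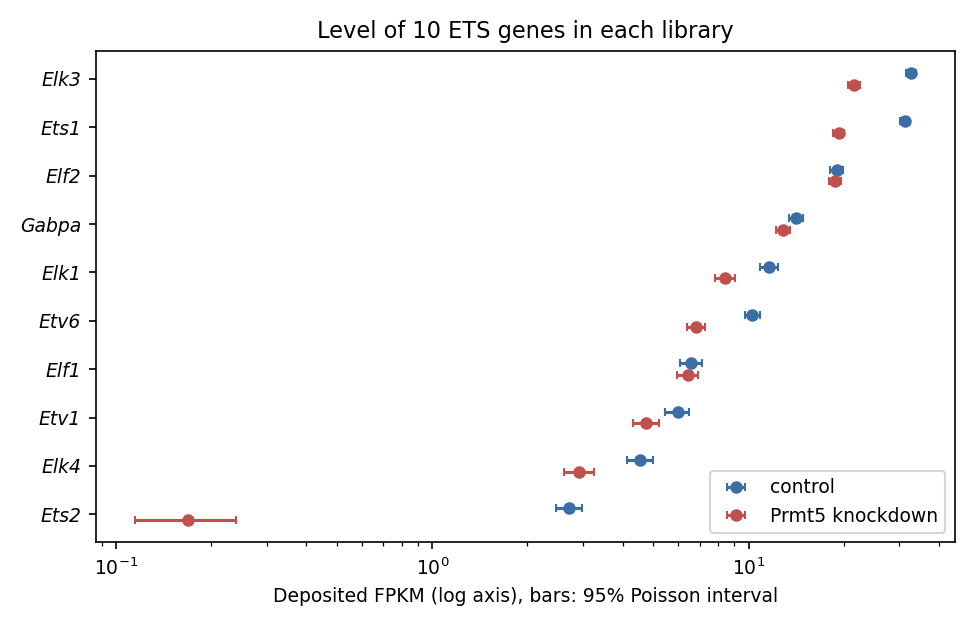
Deposited FPKM (log axis) of the 10 ETS genes in the control (blue) and Prmt5 knockdown (red) library, 1 library each, with 95% Poisson intervals for counting error. The intervals of Ets2, at 2.71 and 0.169 FPKM, lie far apart, and those of Gabpa, Elf1 and Elf2 overlap between the libraries.

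Ets1 (NCBI gene 23871, chromosome 9, 32636241 to 32757820, plus strand), the closest relative of Ets2 and a factor of endothelium and mesenchyme, was lower by a small amount. It had 3480 and 2462 reads, or 31.2 and 19.3 FPKM, and the knockdown library was the lower. The log2 ratio of -0.58 (-0.66 to -0.51), 1.498-fold, fell just short of the rule and passed it under 4 of 9 other settings, among them library totals (-0.69). Beside it, the 13 endothelial markers ran from -1.47 (Sox17) to 0.10 (Cldn5) with a median of -0.57, and the 10 mesenchymal markers from -2.06 to 0.44 with a median of -0.99. The part of either cell type in the value of Ets1 was not tested. As a description that rests on the value used to choose the set, relative to the FPKM of Ets1, that of Ets2 was 0.0869 in control and 0.00875 in knockdown lungs, a log2 change of -3.31 (exact interval -3.89 to -2.78). A ratio within a library does not depend on library scaling.

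The ternary complex factors Elk1, Elk3 and Elk4 bind DNA together with SRF and carry ERK signals to immediate early genes. Elk3 (NCBI gene 13713, chromosome 10, 93247415 to 93311159, minus strand), which represses until it is phosphorylated, was the member with the highest level in both libraries. It had 2821 and 2139 reads, or 32.5 and 21.6 FPKM, with a log2 ratio of -0.48 (-0.57 to -0.40). Elk1 (NCBI gene 13712, chromosome X, 20933395 to 20950608, minus strand) had 930 and 772 reads, or 11.6 and 8.42 FPKM, with a log2 ratio of -0.35 (-0.49 to -0.21). Elk4 (NCBI gene 13714, chromosome 1, 132007577 to 132026448, plus strand) was the least abundant of the trio, with 428 and 314 reads, or 4.54 and 2.91 FPKM, and a log2 ratio of -0.53 (-0.75 to -0.32). In all 3 genes the knockdown library was lower, the interval excluded 1, and the fold stayed under the rule. The balance among the trio moved little. Elk3 over Elk1 was 2.80 in control and 2.56 in knockdown lungs, a log2 change of -0.13 (-0.29 to 0.03), Elk3 over Elk4 changed by 0.05 (-0.18 to 0.28), and Elk4 over Elk1 by -0.18 (-0.44 to 0.08). All 3 intervals hold 0 and allow changes of up to -0.44 or 0.28.

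Etv6 (NCBI gene 14011, chromosome 6, 134035700 to 134270158, plus strand), a repressor that forms polymers through its pointed domain, had 1267 and 960 reads, or 10.3 and 6.81 FPKM. Its log2 ratio was -0.48 (-0.61 to -0.36), like that of Elk3. Etv1 (NCBI gene 14009, chromosome 12, 38780082 to 38870483, plus strand) belongs to the same subfamily as Etv4 and Etv5, the FGF-induced factors of lung epithelium. It had 509 and 463 reads, or 5.96 and 4.74 FPKM, and its log2 ratio of -0.22 (-0.41 to -0.04) was the smallest whose interval excluded 1. Both of its subfamily relatives were lower by more. Etv1 over Etv4 went from 0.347 to 0.632, a log2 change of 0.86 (0.62 to 1.11), and Etv1 over Etv5 from 0.0779 to 0.281, a change of 1.85 (1.65 to 2.05).

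Gabpa, Elf1 and Elf2 were close to even between the pools. Gabpa (NCBI gene 14390, chromosome 16, 84834891 to 84863783, plus strand), which pairs with Gabpb1 or Gabpb2 and acts on housekeeping and mitochondrial genes, had 1523 and 1586 reads, or 14.1 and 12.9 FPKM. Elf1 (NCBI gene 13709, chromosome 14, 79481174 to 79582491, plus strand), a broadly expressed factor with known roles in blood cells, had 576 and 643 reads, or 6.58 and 6.42 FPKM. Its relative Elf2 (NCBI gene 69257, chromosome 3, 51252720 to 51340683, minus strand) had 1815 and 2042 reads, or 19.0 and 18.7 FPKM. For each of the 3 the counting intervals of the libraries overlapped. The log2 ratios were -0.03 (-0.13 to 0.08) for Gabpa, 0.07 (-0.09 to 0.24) for Elf1 and 0.09 (-0.01 to 0.18) for Elf2. These signs depend on scaling, since Gabpa turned positive under 2 of 9 settings and Elf1 and Elf2 turned negative under 3 of 9. Elf1 over Elf2 was 0.346 and 0.343, a change of -0.01 (-0.20 to 0.18).

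Across the 10 members, 8 ratios were below 1 and 2 above it. In 7 members the interval lay below 1 and in none above it, where 37.5% of measured genes lay below and 37.2% above. Both the 8 and the 7 count Ets2, whose ratio set the choice of genes. Whether an interval excludes 1 also depends on read depth, and these background shares were not matched for depth. Nothing about the family is therefore read from that comparison. The median log2 ratio of the members was -0.42, or -0.35 over the 9 members other than Ets2, against -0.01 over all measured genes. Log2 ratios lay between -0.53 and -0.35 in the Elk trio and at 0.07 and 0.09 in the Elf pair.

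The order of the levels, per length, was the same in both libraries. It ran Elk3, Ets1, Elf2, Gabpa, Elk1, Etv6, Elf1, Etv1, Elk4 and Ets2. In the control the neighbours Elk3 and Ets1, and Elf1 and Etv1, had overlapping counting intervals. In the knockdown library Ets1 and Elf2, and Etv6 and Elf1, did. The order rests on the authors' gene lengths, which were 0.284 (Etv1) to 1.23 (Ets2) times the union of GENCODE M21 exons. On exon union lengths Ets2 ranked 8 and Etv1 10 in the control, and Ets2 ranked 10 in the knockdown library. Ets2 was the only member whose deposited length, 7112 bp, exceeded its exon union, 5780 bp. Of the measured genes with an exon length 12.4% had a longer deposited length, and 5.62% by as much as Ets2. Other genes described here also had a deposited length above their exon union, among them Spred2 (2.36 times), Srf (1.42) and Erg (1.27). A length cancels in the ratio of 1 gene between libraries. How the authors' annotation or counting bears on the reads of these genes, Ets2 included, was not tested.

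Some members overlap a neighbouring gene, and the strand setting of the counting is not given in the sources used here. The annotated start of Gabpa lies inside Atp5j, an ATP synthase subunit gene with 2991 and 4804 reads that was higher past the rule (log2 0.60). Elf1 overlaps Wbp4 (964 and 971 reads), Elk3 Cdk17 (939 and 996), Elk4 Mfsd4a (277 and 216) and Elf2 a long noncoding RNA gene (69 and 71). Ets1, Ets2, Elk1 and Etv1 overlapped no other RefSeq gene.

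Of the other 16 ETS genes 10 were measured, 5 lower, 2 higher and 3 not past the rule, with a median log2 ratio of -0.59. Over all measured genes 12.3% were lower and 20.7% higher, and the higher share is near that background. The lower ones were Etv5 (7608 and 1915 reads, log2 -2.07), Etv4 (899 and 449, -1.08), the epithelial factors Elf5 (274 and 65, -2.15) and Elf3 (192 and 103, -0.98), and the endothelial factor Fli1 (806 and 559, -0.61). Fli1 dropped out of the rule with DESeq2 size factors and with a scaling that left out genes at least 4-fold higher. The higher ones were Spi1, the myeloid master factor (232 and 559, 1.18), and Erg, a factor of endothelium and cartilage (208 and 419, 0.92). Epithelial factors of the family were lower beside the epithelial markers, with a list median of -2.04, and Spi1 was higher beside the immune markers, with a median of 1.28. Erg was higher and Fli1 lower beside endothelial markers that had 6 of 13 lower and none higher (median -0.57). The part of these cell types was not tested. The repressor Erf, at 5052 and 3599 reads (log2 -0.57), fell just short of the rule.

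Summed over the family, ETS level was lower in the knockdown library. The FPKM of all 26 genes summed to 344 in control and 212 in knockdown lungs, on the scale of library totals, and those of the 10 members to 139 and 102. The members made up 40.3% of the family's sum in control and 48.1% in knockdown lungs. Among the 26 genes the share of Etv5 moved most, from 22.3% of the control sum to 7.96% of the knockdown sum. Ets2 held 0.788% and 0.0797%, and the shares of Ets1 (9.06% and 9.11%) and Elk3 (9.46% and 10.2%) were nearly level.

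**Figure D2:**
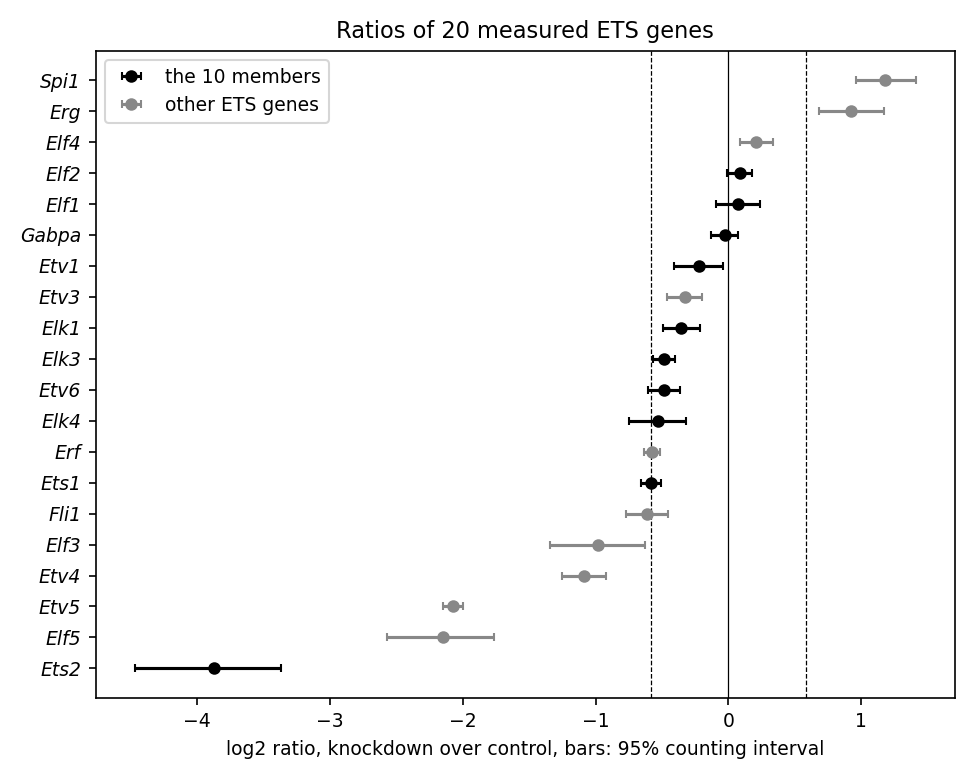
Log2 ratio of knockdown over control with 95% counting intervals for the 20 measured ETS genes, the 10 members in black and the others in grey, with dashed lines at a ratio of 1.5 either way. Ets2 at -3.87 is the lowest, 6 members sit between -0.58 and -0.22, and Gabpa, Elf1 and Elf2 lie near 0.

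Of 15 measured partners and regulators of ETS proteins 2 were lower and none higher, with a median log2 ratio of -0.36, against 12.3% lower and 20.7% higher over all measured genes. The lower share is near that background. Daxx, a nuclear repressor that binds Ets1, had 190 and 16 reads (log2 -3.61, -4.49 to -2.92). Its deposited length was 1.66 times its exon union, and how the authors' annotation or counting bears on its reads was not tested. The runt factor Runx2, whose family binds DNA together with Ets1, had 72 and 45 (-0.76) and dropped out of the rule with FPKM at a pseudocount of 1. The members' direct partners did not pass the rule. Gabpb1 stood at -0.29, Gabpb2 at -0.22 and the ternary complex partner Srf at -0.55, the last passing it under 4 of 9 settings.

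The kinase cascade above these factors held no gene past the rule. Its 18 measured genes ran from -0.53 to 0.56 with a median of 0.02, against a background of 33.0% past the rule in either direction. The genes with most reads were the ERK kinase gene Map2k2 (5586 and 5734 reads, log2 -0.05, with the sign turning under 1 of 9 settings) and the ERK1 gene Mapk3 (5649 and 4156, -0.53). Mapk3 passed as lower under 4 of 9 settings, and Hras (0.56) passed as higher under 2. Of 9 feedback genes induced by or acting on ERK signalling 2 were lower and none higher (median -0.38). Among all measured genes 12.3% were lower and 20.7% higher, and with so few genes nothing is read from this count. The 2 lower ones were the Sprouty-related inhibitors Spred1 (2737 and 1872 reads, -0.63) and Spred2 (1648 and 1134, -0.62). Each of them dropped out when scaling left out genes at least 4-fold higher.

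Among SRF and Elk targets 3 of 8 measured genes were higher and 1 lower (median 0.23), where 20.7% and 12.3% of all measured genes were. With so few genes nothing particular to these lists is read from the counts. The immediate early genes Egr1 (542 and 1133 reads, log2 0.98), Fos (67 and 245, 1.78) and Fosb (14 and 66, 2.11) were higher, and Egr3 (100 and 37, -1.51) was lower, while the 3 Elk genes lay between -0.53 and -0.35. Fosb dropped out of the rule with FPKM at a pseudocount of 1. Among GABP targets 3 of 7 were higher and none lower (median 0.51, same background), beside a Gabpa log2 ratio of -0.03. They were the cytochrome oxidase subunits Cox5b (2934 and 5326, 0.78) and Cox4i1 (9252 and 15334, 0.64) and the cell cycle gene Rb1 (257 and 803, 1.56). Cox4i1 dropped out of the rule under 4 of 9 settings. The mitochondrial transcription factor Tfam (1319 and 1496, 0.10) did not pass the rule. Heart and skeletal muscle markers were higher in the same library, and their part in the oxidase genes was not tested.

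Of 7 measured matrix proteases and related genes linked to Ets1 and Ets2, 2 were higher and 2 lower (median 0.19), beside 20.7% and 12.3% of all measured genes. The matrix protein gene Spp1 (24 and 125 reads, 2.27) and the gelatinase Mmp9 (21 and 60, 1.41), both also made by myeloid or bone cells, were higher. The urokinase receptor Plaur (291 and 162, -0.93) and the gelatinase Mmp2 (9352 and 6394, -0.63) were lower. Mmp2 dropped out of the rule when scaling left out genes at least 4-fold higher, and Mmp9 with FPKM at a pseudocount of 1.

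**Figure D3:**
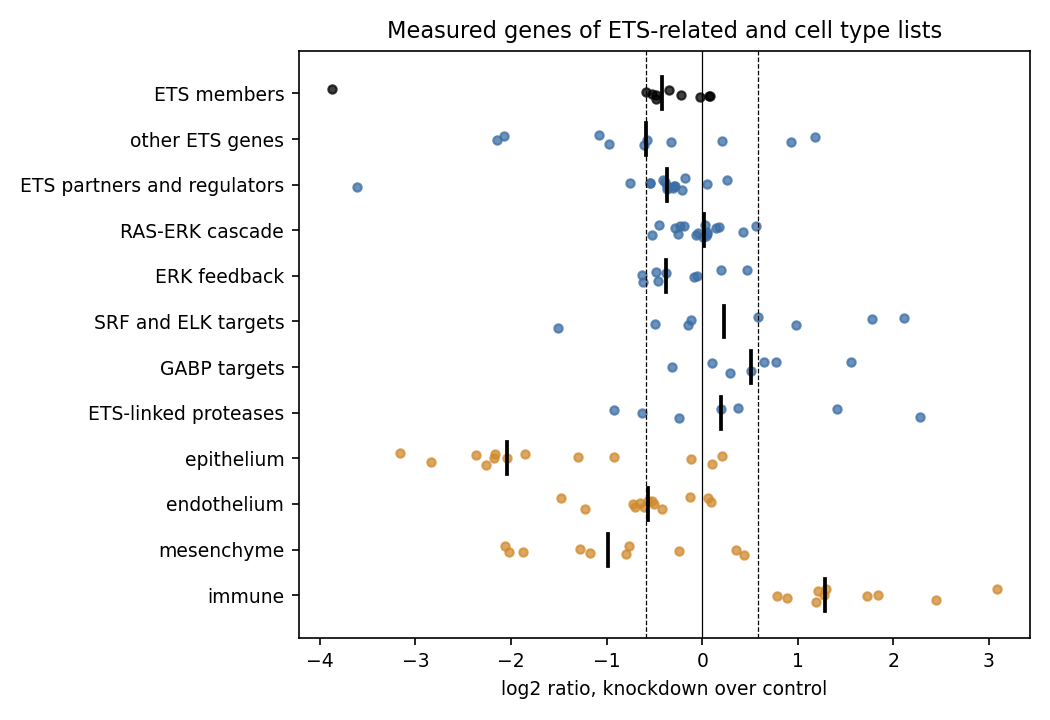
Log2 ratio of every measured gene in the ETS-related lists (members black, others blue) and 4 cell type marker lists (orange), with list medians as vertical bars and dashed lines at a ratio of 1.5 either way. The RAS-ERK cascade is centred on 0.02, the members on -0.42, and epithelium on -2.04.

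Ets2 and Erg are next to each other on chromosome 16 and went in opposite directions. By lower RefSeq coordinate, whatever the strand, Erg lies 343238 bp before Ets2. It was 1.90-fold higher, with 208 and 419 reads. Ets2 over Erg in FPKM went from 1.30 in control to 0.0459 in knockdown lungs, a log2 change of -4.82 (-5.44 to -4.23). The corresponding pair on chromosome 9, Ets1 and Fli1, kept its ratio, at 2.84 and 2.89 (log2 change 0.03, -0.15 to 0.20). The Ets2 side of this description is the value that set the choice of genes, so nothing is read from the contrast of the pairs.

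Large differences in both directions lay around Ets2. Within 1 Mb of Ets2, taken between lower coordinates whatever the strand, 8 other genes were measured. Of these 4 were higher and 3 lower past the rule, beside 20.7% and 12.3% of all measured genes. Over all settings the higher count ran from 3 to 9 and the lower count from 1 to 4. Higher counts of 7 and 9, and the lower count of 4, came only with a read minimum of 10 or none. Those settings admit genes beyond these 8. Around the 9 other members 32 of 103 were higher and 11 lower. The next measured gene after Ets2 by lower coordinate, the proteasome assembly chaperone Psmg1 at 277526 bp, went from 16 control reads to 941 knockdown reads (log2 5.75, 5.09 to 6.61). Its deposited length was 1.47 times its exon union, and how the authors' annotation or counting bears on this value was not tested. Brwd1, a bromodomain gene, had 168 and 536 reads (1.59), and Sh3bgr, a gene of heart and skeletal muscle, had 83 and 2233 (4.66). On the lower side were the glycosyltransferase gene B3galt5 (186 and 26 reads, -2.90), the cell adhesion gene Igsf5 (77 and 44, -0.88) and the nucleosome-binding protein gene Hmgn1 (278 and 192, -0.62). The window around Gabpa on the same chromosome held 1 higher and 1 lower of 6, and that around Etv1 held 1 measured gene, not past the rule.

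**Figure D4:**
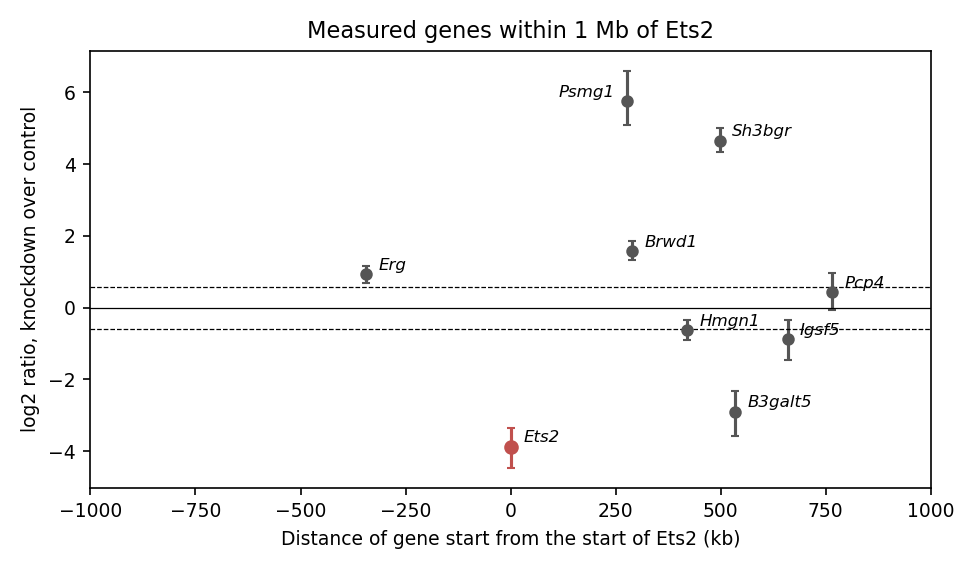
Log2 ratio, with 95% counting intervals, of the 8 measured genes within 1 Mb of Ets2 (grey) and of Ets2 (red). Dashed lines mark a ratio of 1.5 either way. Positions are distances in kb between lower gene coordinates, whatever the strand, which the axis calls gene starts. Ets2 at -3.87 lies between Erg at 0.92 and Psmg1 at 5.75.

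The difference in Ets2 was past the rule under all 9 other settings for scaling, prior count, unit and interval. These settings reuse the read counts by which Ets2 was chosen, so its passing them is no support for the difference. The size of the difference varied with the setting. Log2 ratios of Ets2 ran from -3.98 for library totals to -1.67 for FPKM with a pseudocount of 1, a pseudocount above its knockdown level of 0.169. Over the same settings Ets1 ran from -0.69 to -0.53, Elk3 from -0.59 to -0.43, Elk4 from -0.64 to -0.47, Etv6 from -0.59 to -0.43, Elk1 from -0.46 to -0.29 and Etv1 from -0.33 to -0.16. These 6 members kept their sign in each setting.

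**Figure D5:**
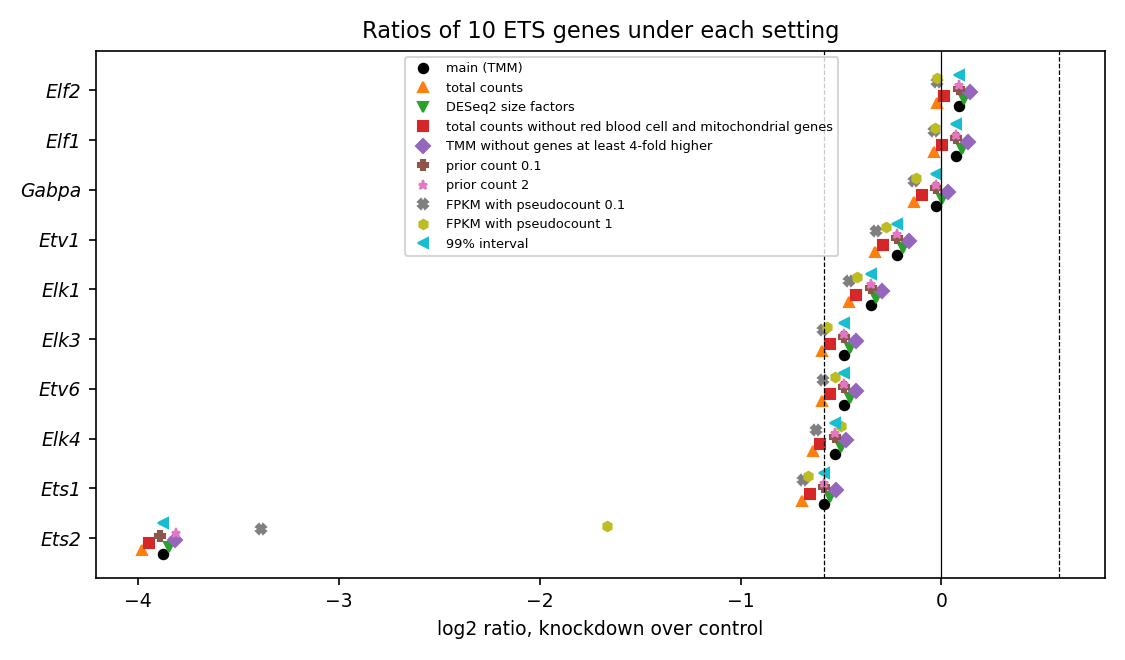
Log2 ratio of each of the 10 members under the main setting (black) and 9 others, with dashed lines at a ratio of 1.5 either way. Ets2 stays at or below -1.67, Ets1, Elk3, Elk4 and Etv6 straddle the dashed line, and Gabpa, Elf1 and Elf2 straddle 0.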

How the data were processed

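The authors deposited raw read counts per gene and FPKM values for the same 41709 genes. Per the submitters' processing notes, reads were aligned with Bowtie2 2.2.3 and TopHat2 2.0.12 to mm10 and counted with HTSeq 0.6.1. Annotation, strand setting and multi-mapping rule: not given in the sources used here. Symbols, positions and promoters came from RefSeq on GRCm38.p6, the assembly of mm10 (40269 entries matched), and exon lengths from GENCODE M21.

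Counts were scaled by the trimmed mean of M values (TMM, edgeR 4.0.16, R 4.3.3), with a prior count of 0.5 in ratios. Intervals were exact (scipy 1.17.1): Clopper-Pearson for 2 counts, Poisson for 1 and conditional odds ratio for pairs. They cover counting error only, and PCR copies can make them too narrow. The steps were tested on simulated counts.

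Named genes were the members, other ETS genes past the rule, up to 3 per list and direction past it (else the 2 with most reads), neighbours of Ets2 past it or nearest, and genes closest to Ets2 in rank or pattern. Overlapping genes, partners, markers and genes just short of the rule were named after their values were seen. Members and lists were chosen with earlier results of these data known. Alternatives covered scaling (DESeq2 1.42.0 among them), prior, FPKM, interval, read minimum and ratio. A planned comparison of member proteins was not analysed here.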

Additional observations from a re-analysis of the deposited data

How the results depend on the processing

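No paired analysis was possible because there is 1 library per group, and for the same reason no library could be left out. The number of members lower past the rule, 1 in the main setting, was 5 with library totals (Ets1, Elk3, Elk4 and Etv6 joining Ets2) and with FPKM at a pseudocount of 0.1, 3 with totals that left out mitochondrial and red blood cell genes, and 2 with FPKM at a pseudocount of 1. These 4 genes lie near the ratio of 1.5, and library totals move the median log2 ratio of all measured genes from -0.01 to -0.12. It stayed 1 under the other 9 settings, and no member was higher under any of the 13. Among other ETS genes the higher count, 2 in the main setting, was 5 with a read minimum of 10 or none and 1 at a ratio of 2. The lower count, 5 in the main setting, was 6 with library totals and with FPKM at a pseudocount of 0.1 or 1. It was also 6 with totals that left out mitochondrial and red blood cell genes. It was 4 with DESeq2 size factors, with scaling that left out genes at least 4-fold higher and at a read minimum of 200. At a ratio of 2 it was 3. Reads limit Ets2 in the knockdown library, where 31 reads give an interval of 0.115 to 0.240 FPKM, and the 6 unmeasured ETS genes.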
